A study of Mus musculus with 29 samples.

Results

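Expression of 32 genes of the lysosome was described in the mouse aortic arch, out of 51456 gene symbols in the deposited files. The genes were listed by name, by the role of their products, with earlier results of these data known. They encode 9 membrane proteins of the lysosome, 6 lumenal proteins that handle lipids, 7 glycosidases and 1 sulfatase, 1 peptidase (Tpp1), 1 phosphatase (Acp5), progranulin (Grn), and 6 subunits of the vacuolar proton pump (V-ATPase). All 32 passed the filter on low values, which left 13510 genes for testing, but Atp6v0d2 did so through ApoE KO libraries alone, so that its difference from the control mice is a description.

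Lysosomes are acid compartments in which proteins, glycans and lipids that a cell has taken up or recycled are broken down. The V-ATPase, a membrane-bound sector (V0) joined to an ATP-splitting sector (V1), pumps in the protons that the enzymes need, and membrane proteins export the products, such as cholesterol, cystine and sugars. In the diseased artery macrophages take up lipoproteins, and lysosomal acid lipase and the Niemann-Pick proteins release the cholesterol they carry. Many lysosomal genes carry a short palindromic sequence near their start, the E-box, which TFEB and its relatives bind.

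The arches came from male C57BL/6 mice of a study of the cardiovascular safety of an antibody to sclerostin (Scl-Ab), a secreted inhibitor of Wnt signalling made mainly by osteocytes. In the Scl-Ab group, mice lacking apolipoprotein E (ApoE KO) carried a pump with angiotensin II (AngII, 15.27 mg/mL) and were injected each week, for 4 weeks in all, with 10 mg/kg of Scl-Ab (n = 10 libraries, numbers 10 to 19). In the vehicle group, ApoE KO mice with the same AngII pump received vehicle injections (n = 9, numbers 1 to 9). In the WT group, mice with a vehicle-filled pump received vehicle injections (n = 10, numbers 20 to 29). All mice were on chow and are labelled 14 weeks of age, the age at which the pumps were implanted. Genotype and AngII differ together between the ApoE KO groups and WT, so their effects cannot be told apart. Some ApoE KO mice of both treatments died early, mainly of aortic rupture, so that only survivors were sampled. The labels' protocol gives 9 WT mice for 10 WT libraries, so n counts libraries.

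Each value is a level per gene and library that the authors named FPKQ. The term is not spelled out and was read here as FPKM-like, that is, scaled by gene length, and comparisons of levels between genes rest on that reading. Sums of values ran between 496130 and 678910 per library. The files used here hold no counts, so read depth is unknown. Apoe averaged 8.387 with Scl-Ab, 6.712 with vehicle and 264.3 in WT, as the labels require. The libraries Scl-Ab 17 and Vehicle 1 stood farthest from their groups over all tested genes, with root mean square log2 deviations of 0.5469 and 0.5302 against at most 0.4194 in the others. Scl-Ab 17 held the lowest Scl-Ab value for 19 of the 32 genes and Vehicle 1 the lowest vehicle value for 16, and counts are therefore also given without both. All 15 macrophage markers were higher in both ApoE KO groups than in WT, and all 8 smooth muscle markers were lower. With Scl-Ab, 3 of 6 endothelial, 2 of 5 fibroblast, 3 of 5 heart muscle and 2 of 6 adipocyte markers were also higher than in WT, and 4 of 5 erythrocyte markers were lower. With vehicle, 4 of 6 endothelial, 3 of 5 fibroblast and none of the heart muscle or adipocyte markers were higher, and 2 of 5 erythrocyte markers were lower. Summed macrophage marker levels were 993.2, 1449 and 2353 (lowest, median and highest library) with Scl-Ab, 1212, 2008 and 3608 with vehicle, and 139.8, 308.4 and 440.7 in WT, with no marker at 0. Summed smooth muscle marker levels were 5575, 9766 and 13420 with Scl-Ab, 4934, 11120 and 16640 with vehicle, and 17300, 18450 and 20750 in WT. The part of cell content in the differences from WT was not tested. In whole tissue, more cells of a type and more RNA per cell cannot be told apart.

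Of the 32 genes, 27 had promoters in a RefSeq table of GRCm38.p6, 34 promoters in all, each covering 250 bases before to 50 bases after a gene start. The E-box CACGTG, which reads the same on both strands, was found in 8 of the 27 genes (29.63%), against 8.093% of all 27025 genes of the table. All 8 also held the longer form TCACGTG, which contains the E-box, on one strand or the other, against 4.292% of all genes. The next sequences, 5′ to 3′ on the strand of the gene with the E-box in capitals, show its setting in 3 glycosidase genes, in a cation channel gene and in the gene of the pump's catalytic subunit. They are Gla (chrX:134601207-134601252, minus strand), Glb1 (chr9:114401010-114401055, plus), Gaa (chr11:119267803-119267848, plus), Mcoln1 (chr8:3500428-3500473, plus) and Atp6v1a (chr16:44139365-44139410, minus). Starts are those of the RefSeq table, and in GENCODE M21 the Atp6v1a gene begins at 44139705, so that its window lies inside the gene.
Gla: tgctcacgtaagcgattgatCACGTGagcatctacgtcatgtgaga
Glb1: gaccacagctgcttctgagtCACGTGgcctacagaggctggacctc
Gaa: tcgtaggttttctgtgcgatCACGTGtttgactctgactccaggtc
Mcoln1: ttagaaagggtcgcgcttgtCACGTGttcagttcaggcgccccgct
Atp6v1a: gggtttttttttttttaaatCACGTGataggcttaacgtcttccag
Cln3 and Atp6v0d1 also held it, and Lamp1 held 4 close together just before its start, shown here because no other member promoter held as many (chr8:13158911-13159160, plus strand).
Lamp1: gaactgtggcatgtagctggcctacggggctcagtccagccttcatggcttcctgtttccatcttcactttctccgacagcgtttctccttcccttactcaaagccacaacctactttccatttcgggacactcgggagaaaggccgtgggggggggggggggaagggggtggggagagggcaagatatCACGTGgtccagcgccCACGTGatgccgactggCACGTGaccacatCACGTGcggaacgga

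A second motif, GAGGAA, the core bound by PU.1 of macrophages and other ETS factors, was searched on both strands. It was found in 13 of the 27 genes (48.15%), against 31.25% of all genes. It is shown for Laptm5, the member with the largest fold change among those with a promoter, as its reverse complement in capitals (chr4:130913066-130913315, plus strand). The start used is that of the RefSeq table. In GENCODE M21 the gene begins earlier, at 130913125, so that part of the stretch lies inside it.
Laptm5: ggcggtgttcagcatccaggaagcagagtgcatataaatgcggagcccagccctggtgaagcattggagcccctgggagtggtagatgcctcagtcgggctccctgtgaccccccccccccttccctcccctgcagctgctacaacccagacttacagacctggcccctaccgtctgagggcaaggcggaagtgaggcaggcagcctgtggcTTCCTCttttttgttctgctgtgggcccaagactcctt

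The level of the 32 genes ranged widely. In the Scl-Ab group Psap was highest, with a mean of 790.4 FPKQ and 27.9% of the sum over the 32 genes, followed by Lamp1 (13.9%) and Cd63 (11.2%). The same 3 genes led in the vehicle group (29.3%, 14.3% and 10.7%) and in WT (25.4%, 16.9% and 12.3%). Gla was lowest in the Scl-Ab and vehicle groups, with means of 4.584 and 6.179 FPKQ, and Atp6v0d2 was lowest in WT, with 0.1188 FPKQ. The sum over the 32 genes was 2209.3, 2799.4 and 3346.7 FPKQ (lowest, median and highest) with Scl-Ab, 2663.7, 3031.3 and 3950.9 with vehicle, and 2187.6, 2365.5 and 2453.8 in WT. No vehicle library was as low as a WT library. The Scl-Ab range overlapped that of WT through Scl-Ab 17 alone, the next lowest Scl-Ab library being at 2672 FPKQ.

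**Figure D1:**
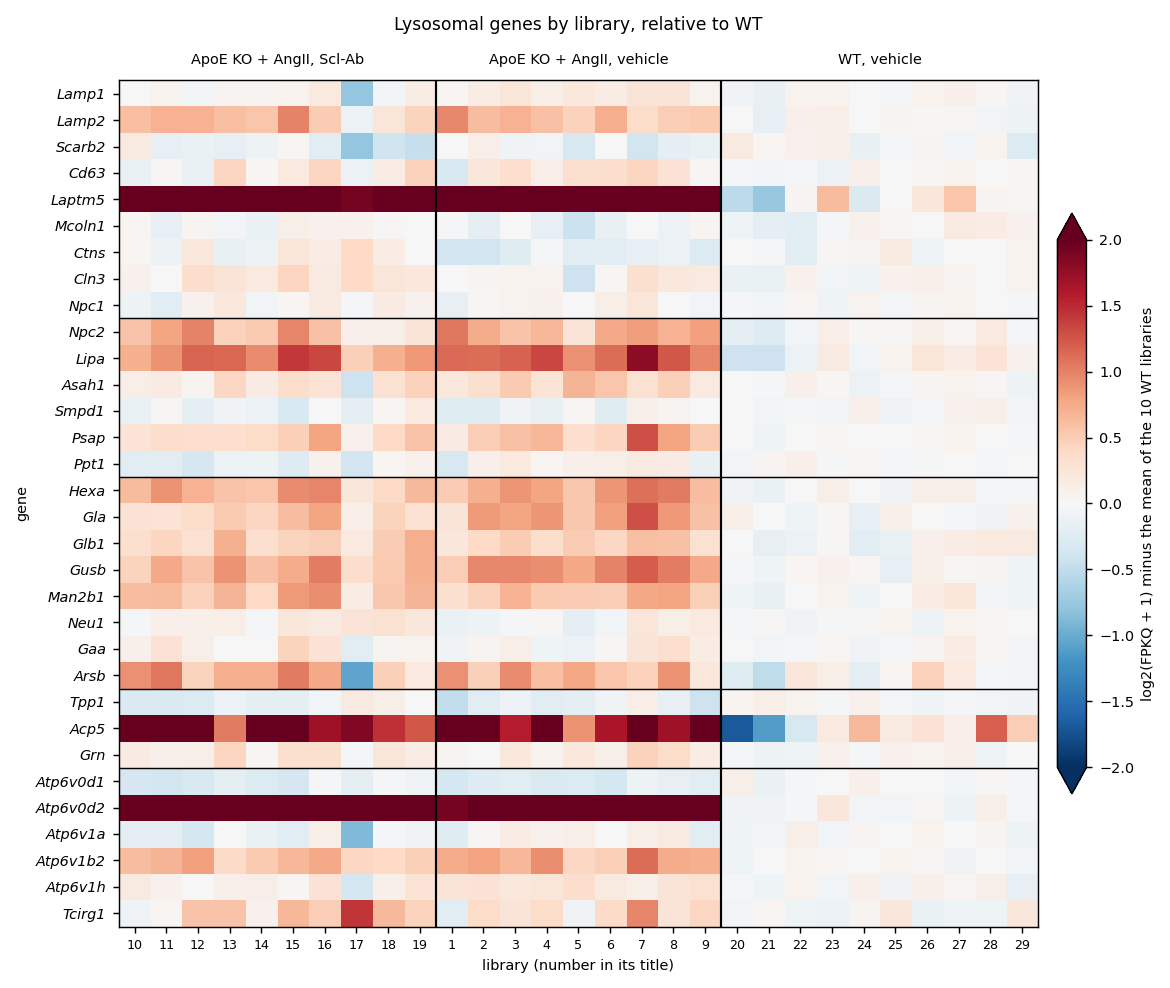
Each of the 32 genes (rows, grouped by role) in each of the 29 libraries (columns: Scl-Ab, vehicle, WT), coloured by the log2 difference of FPKQ + 1 from the WT mean of that gene. Atp6v0d2, Laptm5, Acp5 and Lipa lie above the WT mean in every ApoE KO library, and Scl-Ab 17 holds the lowest Scl-Ab value for 19 of the 32 genes.

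The first comparison asked how lysosomal expression in the diseased aorta differed from that in the WT aorta. With vehicle, 17 of the 32 genes were higher than in WT and 3 were lower (limma on log2(FPKQ + 1), Benjamini-Hochberg adjusted p under 0.05), where 22.7% of all tested genes were higher and 31.0% lower, 53.7% in either direction. The median log2 difference was 0.274 over the 32 genes and -0.039 over all tested genes. For 14 genes every vehicle library lay above every WT library, which held for 7.81% of all tested genes, and for none did every vehicle library lie below (9.04% of all tested genes). With Scl-Ab, 19 of the 32 were higher than in WT and 2 lower, against 19.8% higher, 30.5% lower and 50.4% in either direction among all tested genes. The median log2 difference was 0.213, against -0.0569 over all tested genes. For 9 genes every Scl-Ab library lay above every WT library (5.74% of all tested genes), and for none did every one lie below (6.54%). Atp6v0d2 is among the higher and the separated genes in both comparisons. Both comparisons share the WT libraries and are not independent.

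**Figure D2:**
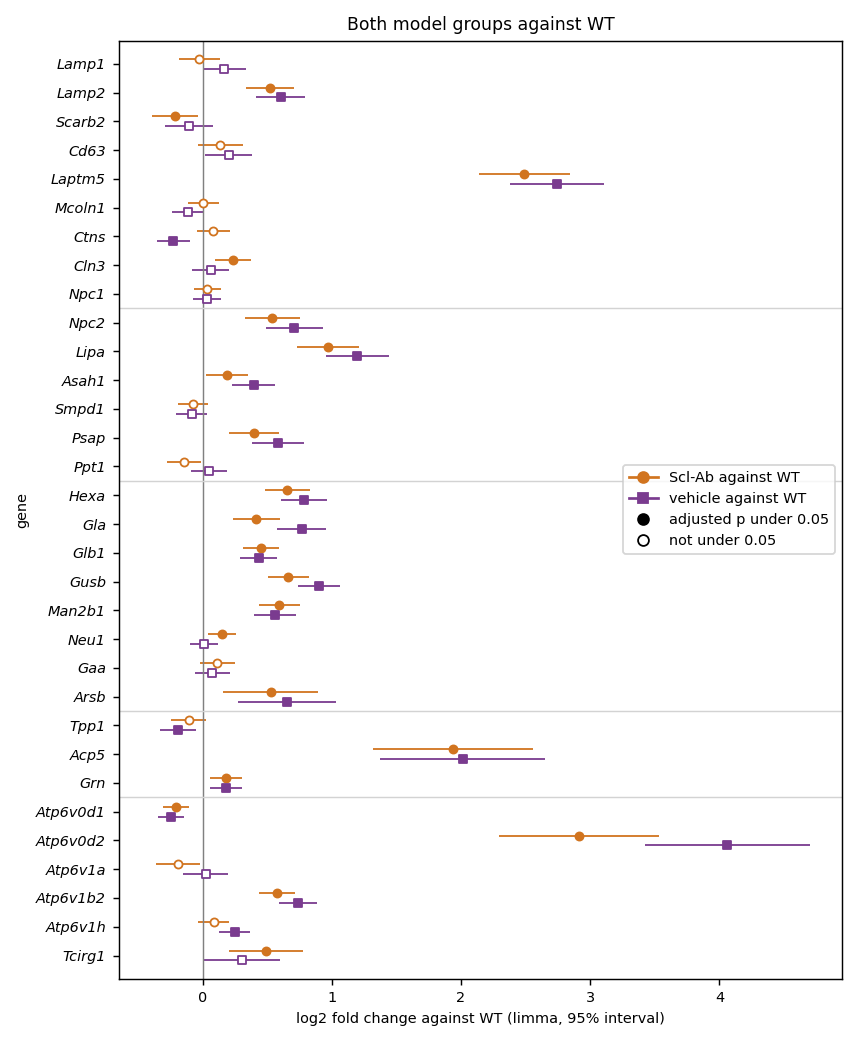
Log2 difference of each of the 32 genes from WT (x axis, log2(FPKQ + 1), bars show 95% confidence intervals from limma) for Scl-Ab (n = 10) and vehicle (n = 9) against WT (n = 10). Glycosidases and lipid-handling genes lie mostly to the right of 0, and the ubiquitous pump subunit gene Atp6v0d1 lies to the left in both comparisons.

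Genes that handle lipids in the lumen were higher in part: 4 of 6 with Scl-Ab and 4 of 6 with vehicle (19.8% and 22.7% of all tested genes). Lipa, which encodes the acid lipase that frees cholesterol from its esters (chr19:34492318-34527474), was at 31.62, 43.29 and 61.31 FPKQ with Scl-Ab (lowest, median, highest), at 42.8, 50.02 and 79.87 with vehicle, and at 16.47, 23.65 and 27.3 in WT. Every ApoE KO library lay above every WT library. The fold difference was 1.956 for Scl-Ab against WT (limma adjusted p = 8.07e-08) and 2.293 for vehicle against WT (log2 1.197, SE 0.12, adjusted p = 2.86e-09). Npc2, which hands the freed cholesterol to the membrane, was at 55.8, 76.73 and 104.7 FPKQ with Scl-Ab, 62.7, 87.96 and 109 with vehicle, and 43.19, 53.08 and 60.08 in WT. It rose 1.453-fold with Scl-Ab and 1.635-fold with vehicle, and only the vehicle libraries all lay above WT. Npc1, its partner in the membrane that moves the cholesterol out, had 11.64, 14.36 and 16.09 FPKQ with Scl-Ab, 12.13, 13.89 and 16.47 with vehicle, and 12.82, 13.59 and 14.49 in WT, and passed in neither comparison (adjusted p = 0.5691 and 0.5961).

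Psap encodes the precursor of the saposins, which present sphingolipids to their hydrolases. It was at 629.3, 763.4 and 1032 FPKQ with Scl-Ab, 664, 844.1 and 1455 with vehicle, and 557.8, 594.9 and 626.9 in WT. All ApoE KO libraries were above all WT libraries, 1.319-fold with Scl-Ab (limma adjusted p = 0.0008492) and 1.498-fold with vehicle (adjusted p = 1.226e-05). Asah1, which encodes acid ceramidase, was 1.14-fold higher with Scl-Ab (adjusted p = 0.04968), a call lost with no filter on low genes (adjusted p = 0.0923) and without most single libraries, and 1.314-fold higher with vehicle (adjusted p = 0.0002208). Smpd1, which encodes acid sphingomyelinase, and Ppt1, which encodes a thioesterase that removes palmitate from proteins, passed in neither comparison. Smpd1 averaged 47.43 FPKQ with Scl-Ab, 47.01 with vehicle and 49.79 in WT, and Ppt1 averaged 86.77, 99.32 and 95.51 FPKQ in the same order.

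The glycosidase and sulfatase genes were higher in 7 of 8 cases with Scl-Ab and in 6 of 8 with vehicle, and none was lower. Of all tested genes 19.8% were higher and 30.5% lower with Scl-Ab, and 22.7% and 31.0% with vehicle. Gusb, which encodes β-glucuronidase (chr5:129989011-130003049), was at 40.03, 49.58 and 64.61 FPKQ with Scl-Ab, 44.18, 61.57 and 73.81 with vehicle, and 27.73, 32.03 and 34.12 in WT. Neither ApoE KO range met the WT range, with fold differences of 1.581 for Scl-Ab (limma adjusted p = 5.03e-08) and 1.865 for vehicle (adjusted p = 2.81e-10). Hexa, which encodes the α subunit of β-hexosaminidase, was at 98.24, 129.9 and 165.1 FPKQ with Scl-Ab, 119.3, 145.2 and 179.7 with vehicle, and 75.87, 82.51 and 90.69 in WT, again without overlap with WT. It rose 1.575-fold and 1.724-fold over WT in the Scl-Ab and vehicle groups. Of its exon length, 12.78% overlaps the opposite-strand gene Tmem202, and whether the authors counted by strand is not given in the sources used here.

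Gla, Glb1 and Man2b1 encode enzymes that cut galactose or mannose from glycolipids and glycoproteins (α-galactosidase A, β-galactosidase and the lysosomal α-mannosidase). Gla had 3.543, 4.465 and 6.209 FPKQ with Scl-Ab, 3.972, 6.294 and 9.142 with vehicle, and 2.706, 3.156 and 3.511 in WT, and rose 1.334-fold with Scl-Ab and 1.70-fold with vehicle over WT. Glb1 had medians of 19.88, 19.45 and 14.44 FPKQ with Scl-Ab, with vehicle and in WT, and rose 1.366-fold and 1.352-fold over WT. Man2b1 had medians of 37.67, 34.49 and 23.66 FPKQ in the same order and rose 1.509-fold and 1.473-fold. Vehicle and WT ranges did not overlap for any of the 3, and for Man2b1 the Scl-Ab range reached into that of WT.

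Arsb, which encodes the sulfatase arylsulfatase B, rose 1.44-fold with Scl-Ab (limma adjusted p = 0.01632) and 1.571-fold with vehicle (adjusted p = 0.004189), with ranges that overlapped WT. As 39.94% of its exon length overlaps 2 opposite-strand gene models, its level is uncertain. Neu1, which encodes a lysosomal sialidase, averaged 15.49 FPKQ with Scl-Ab, 14 with vehicle and 13.86 in WT. It passed with Scl-Ab (1.107-fold, adjusted p = 0.02012) and not with vehicle (1.005-fold, adjusted p = 0.9133), and Scl-Ab and vehicle themselves did not differ past the threshold (adjusted p = 0.1023). Gaa, which encodes the acid α-glucosidase that breaks down glycogen, averaged 44.93, 43.61 and 41.19 FPKQ in the Scl-Ab, vehicle and WT groups and passed in neither comparison.

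Of the 9 genes of lysosomal membrane proteins, 3 were higher and 1 lower with Scl-Ab, and 2 were higher and 1 lower with vehicle. Of all tested genes, 19.8% were higher and 30.5% lower with Scl-Ab, and 22.7% and 31.0% with vehicle. The 2 of 9 higher with vehicle lie near that share. Laptm5, which encodes a lysosomal protein of blood-derived cells (chr4:130913125-130936141), had 26.37, 40.68 and 56.59 FPKQ with Scl-Ab, 29.11, 46.72 and 80.95 with vehicle, and 3.313, 6.462 and 10.21 in WT. The lowest ApoE KO library was well above the highest WT library, and the fold differences were 5.614 for Scl-Ab (limma adjusted p = 3.14e-12) and 6.698 for vehicle (adjusted p = 5.29e-13). Lamp1 and Lamp2 encode the main glycoproteins of the lysosomal membrane. Lamp2 was 1.437-fold higher with Scl-Ab and 1.519-fold higher with vehicle than in WT, with medians of 115.6, 115.9 and 78.04 FPKQ in the Scl-Ab, vehicle and WT groups. Lamp1 had medians of 412.3, 440.8 and 398.1 FPKQ in the same order and passed in neither comparison (adjusted p = 0.79 with Scl-Ab and 0.08008 with vehicle), although vehicle against WT passed without Scl-Ab 17 (adjusted p = 0.00215).

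Ctns, which encodes the cystine exporter, was lower with vehicle than in WT (0.8541-fold, limma adjusted p = 0.003653) and did not differ past the threshold with Scl-Ab (1.059-fold, adjusted p = 0.273). Cln3, whose loss causes a juvenile form of Batten disease, was higher with Scl-Ab (1.177-fold, adjusted p = 0.004653) and did not pass with vehicle (1.044-fold, adjusted p = 0.4694). Scarb2, which encodes an enzyme-sorting receptor of the lysosomal membrane, was lower with Scl-Ab (0.8599-fold, adjusted p = 0.03837), and this call was lost without Scl-Ab 17 (adjusted p = 0.0772) and without several other single libraries. Cd63, which encodes a tetraspanin of late endosomes, and Mcoln1, which encodes a cation channel of the lysosomal membrane, passed in neither comparison. Cd63 averaged 319, 332.8 and 286.9 FPKQ and Mcoln1 13.03, 11.97 and 13 FPKQ in the Scl-Ab, vehicle and WT groups.

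Acp5, which encodes tartrate-resistant acid phosphatase, an enzyme of osteoclasts and activated macrophages (chr9:22126727-22135711), was at 21.76, 41.66 and 75.56 FPKQ with Scl-Ab, 19.63, 44.67 and 94.56 with vehicle, and 2.464, 11.65 and 24.52 in WT. The ranges overlapped at their ends, and the fold differences were 3.833 for Scl-Ab (limma adjusted p = 5.186e-06) and 4.034 for vehicle (adjusted p = 4.517e-06). Grn, which encodes progranulin, a secreted and lysosomal growth factor, was 1.133-fold higher with Scl-Ab and 1.134-fold higher with vehicle. Tpp1, which encodes a peptidase that trims tripeptides from protein ends, was lower with vehicle (0.8746-fold, adjusted p = 0.0192), at an adjusted p of 0.0501 without Vehicle 1, and did not pass with Scl-Ab (0.9271-fold, adjusted p = 0.1747).

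Of the 6 proton pump genes, 3 were higher and 1 lower in each ApoE KO group than in WT. Among all tested genes 19.8% were higher and 30.5% lower with Scl-Ab, and 22.7% and 31.0% with vehicle. Alternative forms of 1 pump subunit stood on opposite sides. The d subunit sits in the membrane sector. Its form d1 (Atp6v0d1) is found in most cells, and the form d2 (Atp6v0d2, chr4:19876841-19922605) is known from osteoclasts and macrophages. Atp6v0d2 had 3.665, 6.939 and 24.59 FPKQ with Scl-Ab, 3.19, 16.92 and 52.12 with vehicle, and 0.04, 0.08985 and 0.3059 in WT. WT libraries were thus close to 0 and all ApoE KO libraries far above them. It passed the filter through ApoE KO libraries alone and so had to differ from WT among the filtered genes. On the log2(FPKQ + 1) scale the differences were 2.91 (SE 0.30) for Scl-Ab and 4.06 (SE 0.31) for vehicle, or 7.535-fold and 16.67-fold. With no filter on low values the limma adjusted p was 2.31e-08 for Scl-Ab and 7.94e-11 for vehicle. The other settings tried kept the filter, so their p-values add nothing here. The sizes of the 2 differences rest on the pseudocount: with 0.1 in place of 1 they were 5.15 and 6.39 on the log2 scale.

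Atp6v0d1 went the other way, at 51.54, 56.76 and 65.72 FPKQ with Scl-Ab, 51.66, 55.45 and 61.66 with vehicle, and 60.67, 66.12 and 72.58 in WT. It was 0.8655-fold (limma adjusted p = 0.0007556) and 0.8431-fold (adjusted p = 0.0001585) of WT, and both ranges overlapped that of WT. As a share of the summed d1 and d2 levels, d2 made up 5.993, 11.53 and 27.23% (lowest, median, highest) with Scl-Ab, 5.817, 24.65 and 45.81% with vehicle, and 0.06232, 0.1368 and 0.4553% in WT. In every library d1 exceeded d2.

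In the V1 sector, Atp6v1b2, which encodes the B subunit, was at 25.81, 29.65 and 35.45 FPKQ with Scl-Ab, 26.3, 33.46 and 43.69 with vehicle, and 18.3, 19.58 and 20.67 in WT. Its ApoE KO ranges did not meet that of WT, and it was 1.49-fold higher with Scl-Ab (limma adjusted p = 7.98e-08) and 1.665-fold higher with vehicle (adjusted p = 1.55e-09). Atp6v1a, the catalytic partner of that subunit, averaged 33.39, 38.61 and 37.83 FPKQ in the Scl-Ab, vehicle and WT groups and passed in neither comparison (adjusted p = 0.05161 with Scl-Ab and 0.8373 with vehicle). Atp6v1h, which encodes a regulatory subunit, was higher with vehicle (1.187-fold, adjusted p = 0.0009608) and did not pass with Scl-Ab (1.06-fold, adjusted p = 0.2276). Tcirg1, which encodes the a3 subunit that osteoclasts need, was higher with Scl-Ab (1.402-fold, adjusted p = 0.004639) and did not pass with vehicle (1.232-fold, adjusted p = 0.07669).

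**Figure D3:**
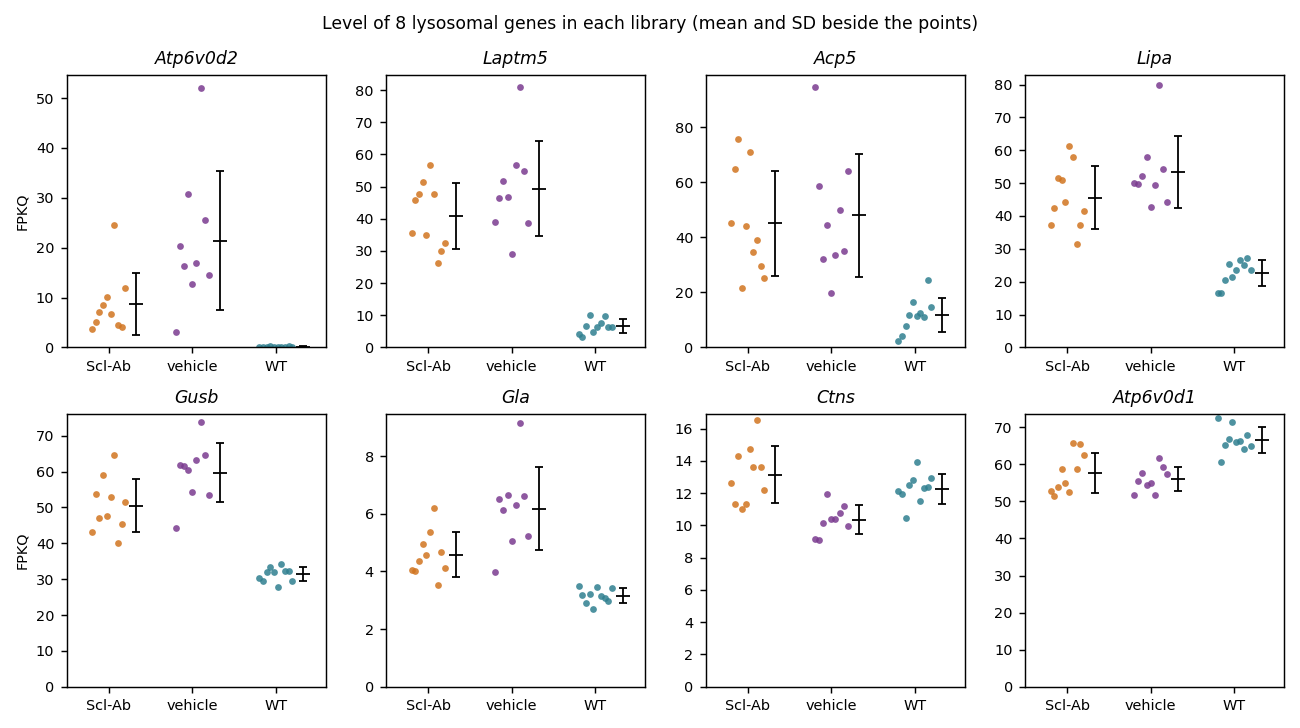
FPKQ of Atp6v0d2, Atp6v0d1, Laptm5, Acp5, Lipa, Gusb, Gla and Ctns in each library (points) with group means and SD (bars), for Scl-Ab, vehicle and WT. Atp6v0d2 in WT lies at 0.3059 FPKQ or below, and Scl-Ab 16 (24.59 FPKQ) stands alone above the other Scl-Ab libraries.

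Since Atp6v0d2, Acp5 and Tcirg1 are also known from osteoclasts, 9 osteoclast markers were read beside them. Of the 5 that passed the filter, 2 were higher and 2 lower with Scl-Ab than in WT, and 1 was higher and 1 lower with vehicle (limma). The difference from WT was negative for 3 of the 5 in each comparison, with medians on the log2 scale of -0.233 with Scl-Ab and -0.0786 with vehicle. The summed level of all 9 markers, Ctsk included, was 63.08, 107.8 and 152.9 FPKQ with Scl-Ab, 94.89, 118.3 and 138 with vehicle, and 68.91, 80.99 and 94.11 in WT. Ctsk, which encodes a collagen-degrading protease also made by macrophages and fibroblasts, averaged 63.61 FPKQ with Scl-Ab, 62.12 with vehicle and 21.32 in WT. The sum over all 9 averaged 104.7, 117.5 and 80.12 FPKQ in the same order (SD 23.82, 12.83 and 7.259). By these means the markers other than Ctsk were together lower than in WT, with vehicle by less than that SD. This was not tested. The mean of log2(FPKQ + 1) over the 9 was 2.025 with Scl-Ab, 2.159 with vehicle and 2 in WT. The median of Dcstamp lay under 0.1 FPKQ in WT alone, and that of Ocstamp in WT and with Scl-Ab. Calcr, the calcitonin receptor gene, was listed at 0 in 9 of 10 Scl-Ab, 9 of 9 vehicle and 7 of 10 WT libraries, and at no more than 0.1012 FPKQ in any.

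The second comparison asked what Scl-Ab did within the ApoE KO mice with AngII. Of the 32 genes, 1 was higher with Scl-Ab than with vehicle (Ctns) and 2 were lower (Gla and Atp6v0d2; limma), against 2.64% higher, 4.80% lower and 7.44% in either direction among all tested genes. The direction was negative for 20 genes and positive for 12, with a median log2 difference of -0.0955 over the 32 genes and -0.0085 over all tested genes. For none of the 32 did the Scl-Ab and vehicle ranges separate, as they did upward for 0.0296% and downward for 0.111% of all tested genes. Without Vehicle 1 alone, or without Scl-Ab 16 alone, 5 of the 32 were called, 4 of them lower.

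Atp6v0d2 averaged 8.642 ± 6.213 FPKQ with Scl-Ab (SD, n = 10) and 21.4 ± 13.91 with vehicle (SD, n = 9). Of the Scl-Ab libraries 9 lay at or below 11.83 FPKQ, with Scl-Ab 16 at 24.59, and of the vehicle libraries 8 lay at or above 12.79, with Vehicle 1 at 3.19. The ranges overlapped through those 2 libraries. The level with Scl-Ab was 0.4521-fold that with vehicle (log2 -1.15, SE 0.31, 95% interval -1.78 to -0.51, limma adjusted p = 0.02507). Without Scl-Ab 16 or Vehicle 1, the 2 libraries that lay against the difference, the adjusted p was 0.0100 and 0.00266. Without Vehicle 2 it was 0.049, the highest value on leaving out 1 library.

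Gla averaged 4.584 ± 0.7692 FPKQ with Scl-Ab (SD, n = 10) and 6.179 ± 1.428 with vehicle (SD, n = 9), a 0.785-fold difference (log2 -0.35, SE 0.09, limma adjusted p = 0.02084). The Gla and Atp6v0d2 calls were lost when low genes were not filtered out (adjusted p = 0.0510 and 0.0619), with libraries scaled to equal sums (0.109 and 0.0568), and with WT left out of the fit (0.0815 and 0.0989). Ctns was at 11.01, 13.13 and 16.54 FPKQ with Scl-Ab, at 9.123, 10.4 and 11.93 with vehicle, and at 10.43, 12.33 and 13.93 in WT. The Scl-Ab libraries thus lay around the WT range and the vehicle libraries mostly below it. Scl-Ab was 1.24-fold above vehicle (log2 0.31, SE 0.06, adjusted p = 0.005991), and the call was kept in each setting tried.

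The titles carry a code, of unstated meaning, whose last digits fall in 2 ranges in both ApoE KO groups. Within the range 12 to 15 (n = 4 with Scl-Ab and 4 with vehicle) the log2 differences were -1.118 for Atp6v0d2, -0.3336 for Gla and 0.2631 for Ctns. Within 27 to 33 (n = 6 and 5) they were -1.206, -0.3692 and 0.3363. With the range as a term in limma, added after the data were seen, the same 3 genes were called. WT codes lie in another range, so that code and group cannot be told apart against WT. Against WT, 4 genes passed with Scl-Ab and not with vehicle (Scarb2, Cln3, Neu1 and Tcirg1) and 3 with vehicle and not with Scl-Ab (Ctns, Tpp1 and Atp6v1h), and of these 7 only Ctns differed between Scl-Ab and vehicle past the threshold. Without Scl-Ab 17 and Vehicle 1 the calls were 23 for Scl-Ab against WT, 23 for vehicle against WT and 5 for Scl-Ab against vehicle, where Ppt1 (adjusted p = 0.0240) and Gusb (adjusted p = 0.0251) were added as lower.

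Cell type markers were also read beside this comparison. Of the 15 macrophage markers 13 had a negative difference, 2 had an unadjusted p under 0.05 and none passed the adjusted threshold of limma. Summed heart muscle marker levels were 37.03, 334.4 and 758.8 FPKQ with Scl-Ab and 24.54, 87.5 and 375.6 with vehicle. All 5 heart muscle markers had a positive difference, 4 had an unadjusted p under 0.05 and none passed the adjusted threshold of limma. The clock genes Dbp and Arntl, chosen after their values were seen, differed past that threshold. Dbp averaged 140.7 FPKQ with Scl-Ab and 42.35 with vehicle (limma adjusted p = 0.009528), and Arntl 2.194 and 11.28 (adjusted p = 0.007832). Of 6 endothelial markers 2 were called lower with Scl-Ab, with a median log2 difference of -0.359, and their summed level was 72.48, 131.7 and 190.9 FPKQ with Scl-Ab and 152.4, 184.7 and 214.2 with vehicle. What part macrophages, heart tissue, endothelium or time of day had in the 3 calls was not tested.

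**Figure D4:**
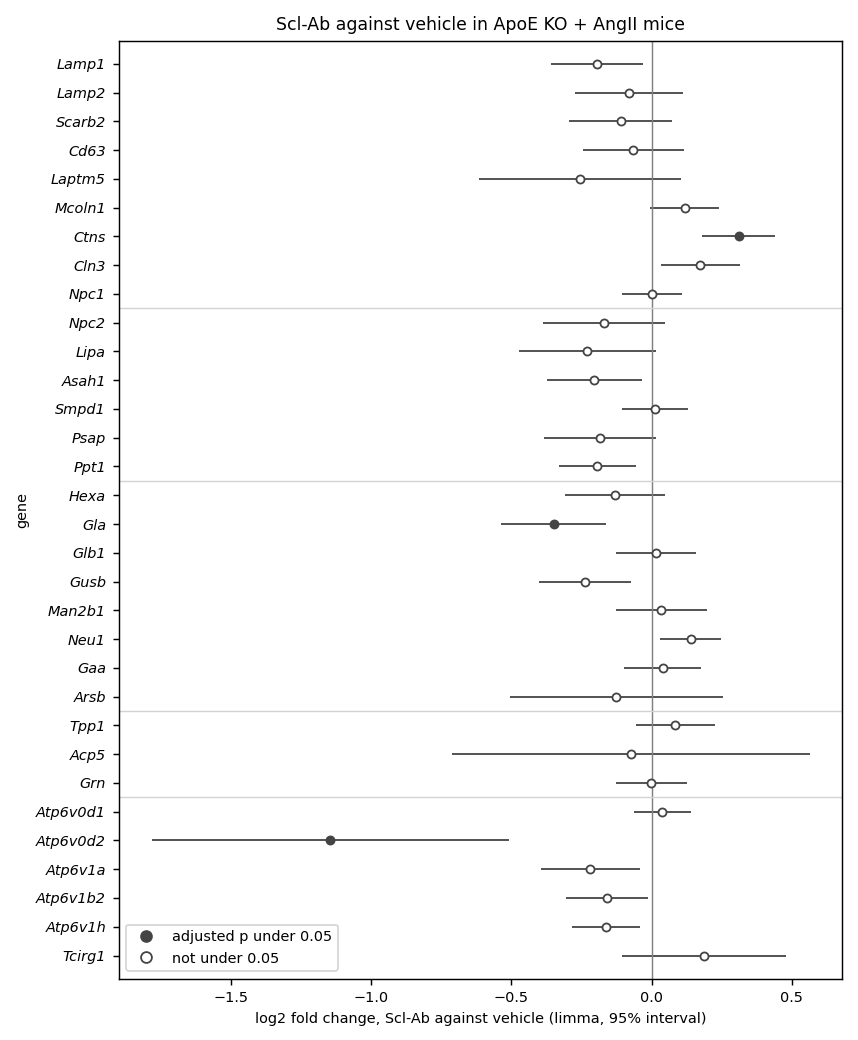
Log2 difference between Scl-Ab (n = 10) and vehicle (n = 9) for each of the 32 genes (x axis, log2(FPKQ + 1), 95% confidence intervals from limma), with called genes marked. Ctns lies to the right of 0, and Gla and Atp6v0d2 to the left, with the widest interval for Acp5 and Atp6v0d2.

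Whether a gene followed the macrophage content of a library was described within each group, so that group differences did not enter. For each gene the level on the log2(FPKQ + 1) scale was correlated with the mean over the 15 macrophage markers, 96 relations in all, with permutation p-values adjusted over the 96. By Pearson r, 4 of the 32 relations passed with Scl-Ab, 3 with vehicle and 8 in WT, and by Spearman rho 2, 4 and 8. An r of 0.8 or more in size was reached by 4, 3 and 6 of the 32 genes, against 5.855%, 2.036% and 4.434% of all tested genes. Median Pearson r over the 32 genes was 0.4129 with Scl-Ab, 0.4424 with vehicle and 0.3814 in WT, and over all tested genes -0.01675, -0.007428 and -0.03882.

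Laptm5 followed the markers in all 3 groups. Its Pearson r was 0.9866 with Scl-Ab (Spearman rho 0.9879, permutation p = 4e-05 and 3e-05, adjusted p = 0.003836 and 0.00288), 0.9487 with vehicle (rho 0.9667, exact permutation p = 7.992e-05 and 0.0001653, adjusted 0.003836 and 0.00672) and 0.9208 in WT (rho 0.8667, permutation p = 0.00034 and 0.00231, adjusted 0.00564 and 0.03168). Without the 2 libraries farthest from the median of the markers r was 0.9818, 0.9398 and 0.8413. Lipa passed with Scl-Ab (r = 0.8896, rho = 0.8667, permutation adjusted p = 0.008533 and 0.03168; r = 0.7468 without the 2 farthest libraries). Hexa passed with vehicle (r = 0.8476, rho = 0.8833, exact permutation adjusted p = 0.03343 and 0.0328; r = 0.7597 without the 2) and in WT (r = 0.8671, rho = 0.8303, adjusted p = 0.00564 and 0.04165; r = 0.7955 without the 2).

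In WT, Psap (r = 0.9366, rho = 0.8909; r = 0.8759 without the 2 farthest libraries) and Lamp1 (r = 0.8926, rho = 0.8182; 0.8347) passed with permutation adjusted p of 0.00544 and 0.00564 for r and 0.02519 and 0.04165 for rho. Lamp2, Arsb, Man2b1 and Grn passed there too, with r between 0.7621 and 0.8041. For Lamp2 r was 0.4899 without the 2 farthest libraries, so that the size of its r rests in part on them. Its rho over all WT libraries was 0.8545 (permutation adjusted p = 0.0328). Lamp2 and Npc2 with Scl-Ab passed for r (0.872 and 0.8385) and not for rho (permutation adjusted p = 0.05363 and 0.06773). Gusb with vehicle passed for rho (0.85, exact permutation adjusted p = 0.04165) and not for r (0.6821, adjusted p = 0.1525). Atp6v1h with vehicle was the only relation below 0 that passed, with r = -0.933 and rho = -0.9167 (exact permutation adjusted p = 0.00564 and 0.02519) and r = -0.913 without the 2 farthest libraries. It was not repeated in the other groups, where r was 0.2799 with Scl-Ab and 0.3415 in WT and did not pass. Atp6v0d2 did not pass in any group (r = 0.2417 with Scl-Ab, 0.4809 with vehicle and 0.3819 in WT), nor did Acp5 (0.4137, 0.1017 and 0.5283). In WT Atp6v0d2 averaged 0.1188 FPKQ, too near 0 for its r there to show whether it followed the markers.

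**Figure D5:**
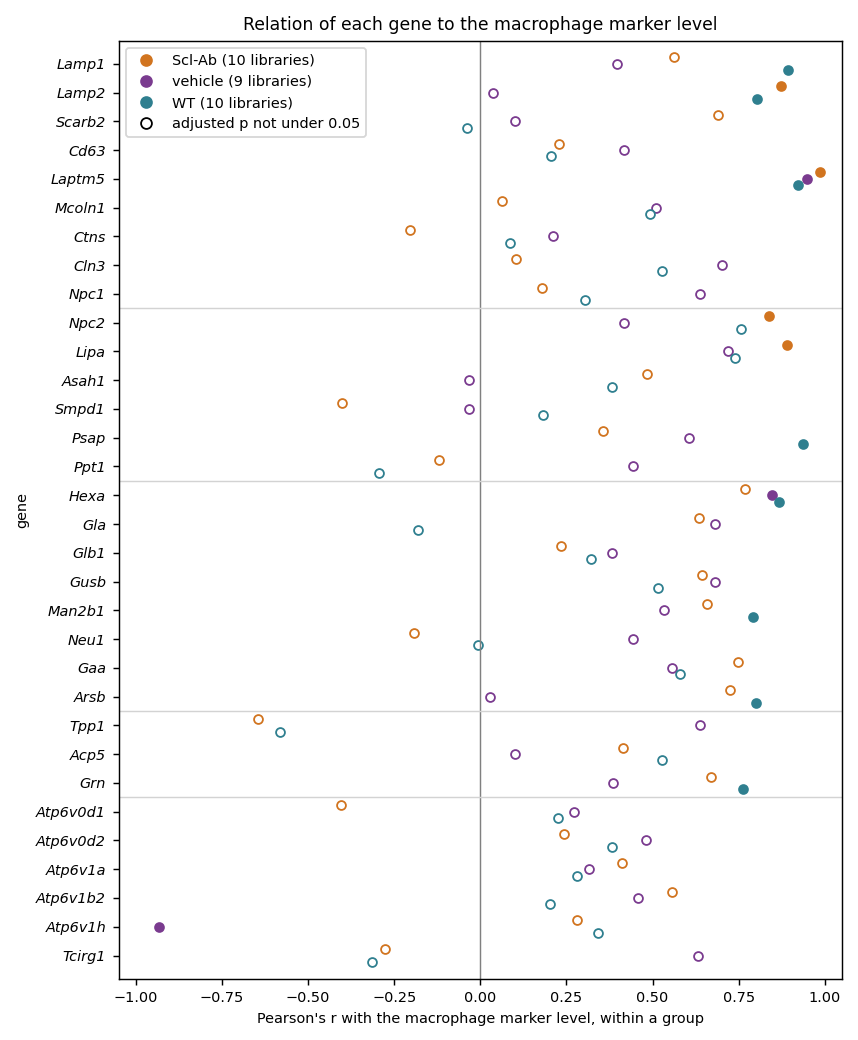
Pearson r of each of the 32 genes (rows) with the mean level of 15 macrophage markers within the Scl-Ab (n = 10), vehicle (n = 9) and WT (n = 10) libraries, filled where the permutation p adjusted over 96 relations is under 0.05. Laptm5 is filled in all 3 groups, and Atp6v1h with vehicle lies at -0.933.

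Calls were also counted by promoter motif. With vehicle against WT, 2 of the 8 genes with an E-box were higher, 1 was lower and 5 did not pass, with a median log2 difference of 0.06821. Among all tested genes 22.7% were higher and 31.0% lower, so that 2 of 8 higher lies near the share of all genes. Of the 19 genes without one, 11 were higher, 2 lower and 6 did not pass, with a median of 0.5583. Of the 13 genes with GAGGAA, 9 were higher and none lower, and of the 14 without it, 4 were higher and 3 lower. With Scl-Ab against WT, 19.8% of all tested genes were higher and 30.5% lower. There 3 of the 8 genes with an E-box were higher and 1 lower, and 13 of the 19 without one were higher and 1 lower. Of the 13 genes with GAGGAA, 11 were higher and none lower, against 5 higher and 2 lower of the 14 without it. These counts were not tested, and a match of letters shows no binding.

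Other genes of the lysosomal pathway, grouped by function, gave the surroundings of the 32. Among all tested genes, 19.8% were higher and 30.5% lower than in WT with Scl-Ab, and 22.7% and 31.0% with vehicle. Of 21 further hydrolase genes, 12 were higher and 1 lower with Scl-Ab than in WT, and 14 were higher and 1 lower with vehicle (limma). Galc, which encodes galactosylceramidase, was 1.88-fold and 2.051-fold of WT with Scl-Ab and vehicle, and Fuca1, which encodes α-fucosidase, 1.357-fold and 1.402-fold. Of 18 further membrane proteins and transporters, 9 were higher and 3 lower with Scl-Ab, and 7 higher and 3 lower with vehicle. Slc15a3, which encodes a peptide and histidine transporter, was 4.274-fold and 6.08-fold of WT, Slc11a1, which encodes the phagosomal metal transporter, 2.58-fold and 3.228-fold, and Laptm4b, a relative of Laptm5, 0.6924-fold and 0.6168-fold. Slc15a3 was at no more than 0.6234 FPKQ in WT and passed the filter through ApoE KO libraries alone, so that its difference is a description.

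The next 2 lists are read against the same shares of all tested genes (19.8% higher and 30.5% lower with Scl-Ab, 22.7% and 31.0% with vehicle). Of 19 further V-ATPase genes, 15 passed the filter, and 4 were higher and 3 lower in each ApoE KO group than in WT. Those with the smallest p in vehicle against WT were Atp6v0e2, which encodes a form of a small membrane-sector subunit (0.668-fold with Scl-Ab and 0.6663-fold with vehicle), Atp6v0a4, a form known from kidney (1.712-fold and 1.46-fold), and Atp6ap2, the pump's accessory protein (1.102-fold and 1.208-fold). Atp6v0a4 likewise passed the filter through ApoE KO libraries alone (at most 0.5664 FPKQ in WT). Of 10 genes that sort enzymes to the lysosome, 3 were higher and 3 lower with Scl-Ab, and 5 higher and 4 lower with vehicle. They included Igf2r, the large mannose 6-phosphate receptor (1.45-fold and 1.471-fold), Gnptab, which makes the mannose 6-phosphate tag (1.203-fold and 1.241-fold), and the adaptor Gga2 (0.7165-fold and 0.7442-fold).

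Of 18 genes of the TFEB family and of mTORC1 control at the lysosome, 4 were higher and 5 lower with Scl-Ab, and 3 higher and 7 lower with vehicle. The shares of all tested genes were 19.8% and 30.5% with Scl-Ab, and 22.7% and 31.0% with vehicle, and the counts with Scl-Ab lie near them. Tfeb itself averaged 14.84 FPKQ with Scl-Ab, 11.1 with vehicle and 16.9 in WT. It fell with vehicle (0.6703-fold, limma adjusted p = 0.0002251), did not pass with Scl-Ab against WT (0.8692-fold, adjusted p = 0.1535), and missed the threshold between Scl-Ab and vehicle (1.297-fold, adjusted p = 0.05414). Its relative Tfec, a macrophage form, was 1.501-fold of WT with Scl-Ab and 1.724-fold with vehicle, and Fnip2, which encodes a partner of folliculin, 1.097-fold (not called) and 1.263-fold. Tfec too passed the filter through ApoE KO libraries alone (at most 0.6981 FPKQ in WT). Of 16 autophagy genes, 2 were higher and 6 lower with Scl-Ab, and 2 higher and 9 lower with vehicle, among them Map1lc3a (0.6771-fold and 0.6738-fold) and Map1lc3b (0.8026-fold and 0.8071-fold), which encode autophagosome proteins, and the kinase gene Ulk1 (0.8712-fold and 0.79-fold).

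Between Scl-Ab and vehicle, 1 of 21 further hydrolase, 2 of 18 membrane, 1 of 10 sorting and 2 of 16 autophagy genes passed. None of the 15 tested V-ATPase genes and none of the 18 TFEB family and mTORC1 genes did. Among all tested genes 7.44% passed, so these lists held no clear excess. The genes named here were chosen after their values were seen. M6pr, which encodes the small mannose 6-phosphate receptor, was at 59.42 FPKQ with Scl-Ab and 69.26 with vehicle (0.8596-fold, limma adjusted p = 0.009429). Ids, which encodes iduronate sulfatase, was 0.7694-fold (adjusted p = 0.04631), Laptm4a, another relative of Laptm5, 0.8876-fold (0.04336), Lmbrd1, which encodes a cobalamin exporter, 0.9043-fold (0.04744) and Becn1, which helps start autophagosomes, 0.9029-fold (0.03169). Atg9a, which encodes an autophagy membrane protein, was 1.111-fold (0.04988).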

How the data were processed

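Aortic arch RNA of 29 libraries had been sequenced as stranded mRNA libraries, per the labels' protocols. The authors deposited 1 FPKM-like value per gene symbol and library (FPKQ, not spelled out per the file headers). Genome build GRCm38 and DESeq2 1.10.1 are named without a role, per the submitters' processing notes, and the aligner, the counting and its use of strand are not given there, in the labels or in the headers. The 85th percentile over genes lay between 6.993 and 7.300 in every library. Depth is unknown, so no counting error is given. Groups and numbers came from the labels.

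Values were analysed as log2(FPKQ + 1) in limma (version 3.58.1, under R 4.3.3) with a trended, robust variance prior and 3 group means over 29 libraries. The 13510 genes that reached 1 FPKQ in 9 or more libraries were tested, p-values were adjusted over all of them (Benjamini-Hochberg), and calls were made under 0.05. The fit was tested on simulated data. For low genes the pseudocount of 1 pulls fold changes toward 1. Where nothing says that libraries came from separate animals, p-values measure the spread between libraries. The members and lists were chosen with earlier results of these data known. All members are named, with the 3 called genes of smallest p per further list in vehicle against WT, of which 1 is not reported here. Correlations used 100000 permutations (n = 10) or exact enumeration (n = 9). Coordinates and exon overlaps are from GENCODE M21 (GRCm38). Alternatives were another pseudocount, no filter, other scalings, other fits, and leaving out libraries.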

Additional observations from a re-analysis of the deposited data

Results flagged for a closer look

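Among the 96 sets of values (32 genes in 3 groups), 9 held a library that stood apart from the rest of its group by Dixon's criterion. Its chance rate of about 1 in 20 holds for independent sets of normal values. As the 96 sets share libraries, the 9 cannot be set against that rate. Scl-Ab 17 accounted for 4. In it Lamp1 was 232.3 FPKQ (next lowest 379.7), Asah1 36.34 (50.67) and Atp6v1h 25.8 (32.88), each the lowest of the Scl-Ab group, and Tcirg1 was 48.98, the highest (next 28.22). Vehicle 7 accounted for 3, each the highest of the vehicle group: Lipa at 79.87 FPKQ (next 57.86), Psap at 1455 (1028) and Tcirg1 at 35.41 (23.56). Atp6v0d2 in Scl-Ab 16 was 24.59 FPKQ, above the next Scl-Ab library at 11.83. Cln3 in Vehicle 5 was 5.751 FPKQ, below the next vehicle library at 8.071.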

How the results depend on the processing

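No paired analysis was possible because the groups share no replicate numbers. Leaving out each of the 29 libraries in turn gave 19 to 23 genes called for Scl-Ab against WT (18 to 21 higher, 1 to 4 lower), 20 to 23 for vehicle against WT (17 to 20 higher, 2 to 3 lower) and 3 to 5 for Scl-Ab against vehicle (1 to 2 higher, 2 to 4 lower). The 5 calls were those without Vehicle 1 or without Scl-Ab 16, where 4 genes were lower in both comparisons of Scl-Ab, and the 2 higher calls were those without Vehicle 7. For Scl-Ab against WT 1 gene was lower without Scl-Ab 17 or WT 20, 21, 22, 23, 26 or 28. Under the other settings the ranges were 19 to 23, 18 to 23 and 1 to 5. For Scl-Ab against WT 1 gene in place of 2 was lower with no filter, with equal sums and with median-of-ratios scaling. For Scl-Ab against vehicle 1 gene was called and 0 were lower with no filter, with equal sums and with the compared groups alone, and 5, of them 4 lower, without Scl-Ab 17 and Vehicle 1. Over all genes that comparison gave 1005 calls (35.4% higher), 447 with no filter, 369 with equal sums (65.0% higher; 46.2% with median-of-ratios scaling) and 309 with the compared groups alone. In every setting, 25, 27 and 27 of the 32 genes kept their call in Scl-Ab against WT, vehicle against WT and Scl-Ab against vehicle. No called gene changed its sign. Changed calls were Asah1 and Scarb2 (lost) and Atp6v1a, Atp6v1h, Gaa, Ppt1 and Tpp1 (gained) for Scl-Ab against WT, Grn and Tpp1 (lost) and Cd63, Lamp1 and Tcirg1 (gained) for vehicle against WT, and Gla and Atp6v0d2 (lost) and Gusb, Neu1 and Ppt1 (gained) for Scl-Ab against vehicle. The cause was not tested. Depth limits what can be said of Atp6v0d2 in WT, where all values lay at or below 0.3059 FPKQ.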
